A study of Homo sapiens with 4 samples.

Results

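The aryl hydrocarbon receptor axis and the CYP3A enzymes were followed here through 9 genes, CYP3A4 and CYP3A5 among them. Of the 9, 8 were measured among the 21214 clusters tested. A gene was taken as measured where a transcript cluster, a set of probes covering 1 locus on the array, was annotated to that symbol and no other. Each of the 8 genes had a single such cluster. The 9th gene, AHRR, shares its cluster with the neighbouring gene PDCD6 and was left out of all counts.

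AGS is an established line of human gastric carcinoma cells. Its cells were given 0.01% ornithogalum, a homeopathic formulation, or ethanol as the vehicle, for 36 h in both groups. Total RNA from 2 biological replicates per group was hybridised to 4 Affymetrix Human Gene arrays, and whether the replicates came from separate experiments is not stated, so the p-values cover only the spread seen among these 4 arrays. In a bulk RNA sample, fewer cells carrying a transcript and less of it per cell cannot be told apart.

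AHR is a ligand-activated transcription factor that waits in the cytoplasm in a complex with HSP90 chaperones. After binding a planar aromatic ligand it moves to the nucleus, pairs with ARNT and binds response elements with the core GCGTG near genes such as CYP1A1, CYP1A2, CYP1B1 and TIPARP, while AHRR and TIPARP act back on the receptor as brakes. CYP1A1, CYP1A2 and CYP1B1 oxidise polycyclic aromatic compounds, whereas CYP3A4 and CYP3A5 oxidise many drugs and steroids and are controlled mainly by the pregnane X receptor (PXR, gene NR1I2) in liver and gut.

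The stretch before the transcription start is shown for 4 of the genes, because elements bound by these receptors can lie there. TIPARP and CYP3A5 were included because they had the largest differences between groups. Elements farther than 250 bases before a start were not searched. The RefSeq promoter table (GRCh38.p14) held 8 of the 9 genes with 11 start sites, and CYP1B1 had no entry. The 250 bases before each start were searched on both strands for GCGTG and for an everted repeat bound by PXR, the half-sites TGAACT and AGGTCA with 6 bases between them. These motifs do not overlap in the windows shown, and capitals mark each match. The windows lie at chr3:156674340-156674589 (plus strand) for TIPARP, chr15:74725529-74725778 (minus strand) for CYP1A1, chr7:99679997-99680246 (minus strand) for CYP3A5 and chr7:99784185-99784434 (minus strand) for CYP3A4, and each is written 5′ to 3′ on the gene's strand.
TIPARP: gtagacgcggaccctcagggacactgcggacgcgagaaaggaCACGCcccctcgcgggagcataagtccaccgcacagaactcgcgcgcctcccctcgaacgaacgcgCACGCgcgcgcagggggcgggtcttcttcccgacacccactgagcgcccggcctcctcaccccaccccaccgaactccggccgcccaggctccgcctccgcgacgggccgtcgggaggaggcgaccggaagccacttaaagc
CYP1A1: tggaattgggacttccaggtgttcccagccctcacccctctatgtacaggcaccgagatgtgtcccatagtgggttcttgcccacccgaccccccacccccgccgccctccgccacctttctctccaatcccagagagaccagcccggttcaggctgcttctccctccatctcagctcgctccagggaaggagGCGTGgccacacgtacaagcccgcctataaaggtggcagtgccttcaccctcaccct
CYP3A5: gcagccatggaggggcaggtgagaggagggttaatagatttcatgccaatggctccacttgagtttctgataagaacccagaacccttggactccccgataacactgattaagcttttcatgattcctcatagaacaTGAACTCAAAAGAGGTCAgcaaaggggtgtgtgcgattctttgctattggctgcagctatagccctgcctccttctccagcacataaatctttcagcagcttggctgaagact
CYP3A4: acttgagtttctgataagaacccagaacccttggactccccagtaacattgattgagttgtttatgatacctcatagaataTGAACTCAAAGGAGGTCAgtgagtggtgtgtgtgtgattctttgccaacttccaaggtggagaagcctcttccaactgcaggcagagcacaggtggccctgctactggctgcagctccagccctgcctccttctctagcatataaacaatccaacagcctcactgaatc
The core GCGTG stood in 4 of the 11 windows, which belonged to 3 genes, TIPARP, CYP1A1 and AHRR. It also stood in 32.2% of 35116 promoter windows of the same length. In TIPARP it was found 2 times on the opposite strand, where it reads CACGC, at 208 and 142 bases before the first of 3 annotated starts. In CYP1A1 it was found 57 bases before the start. The everted repeat was found in CYP3A5, 113 bases before its start, and in CYP3A4, 169 bases before. Of all 35116 windows, 3 held it, and the third belonged to ITGB1BP2. Only this exact spelling and spacing were searched, so other forms of PXR element are not counted. With the motif written so narrowly, its rarity is no result about these genes. Over 192 aligned bases the CYP3A5 and CYP3A4 windows were 84.4% identical. A match describes the letters of a window and does not show that a factor binds there.

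Of the 8 genes, 2 rose (AHR and TIPARP), 1 fell (CYP3A5) and 5 did not pass the test. A gene was called where limma's adjusted p, a moderated two-sided test with Benjamini-Hochberg adjustment over all tested clusters, was under 0.05. This test called 19.2% of the 21214 clusters, 6.57% higher and 12.6% lower in ornithogalum-treated cells. In clusters this split was 1393 higher and 2683 lower on the deposited values, and 2238 higher and 1898 lower after each array was centred on its median. The groups did not overlap for 4 of the 8 genes, 3 of them higher and 1 lower, against 62.2% of all clusters, 32.0% higher and 30.2% lower. The median log2 difference was 0.042 over the 8 genes and 0.035 over all clusters. The array values cover a log2 scale from 0.297 to 13.2, and a level of 1 gene is not set against that of another because probes differ in brightness.

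**Figure D1:**
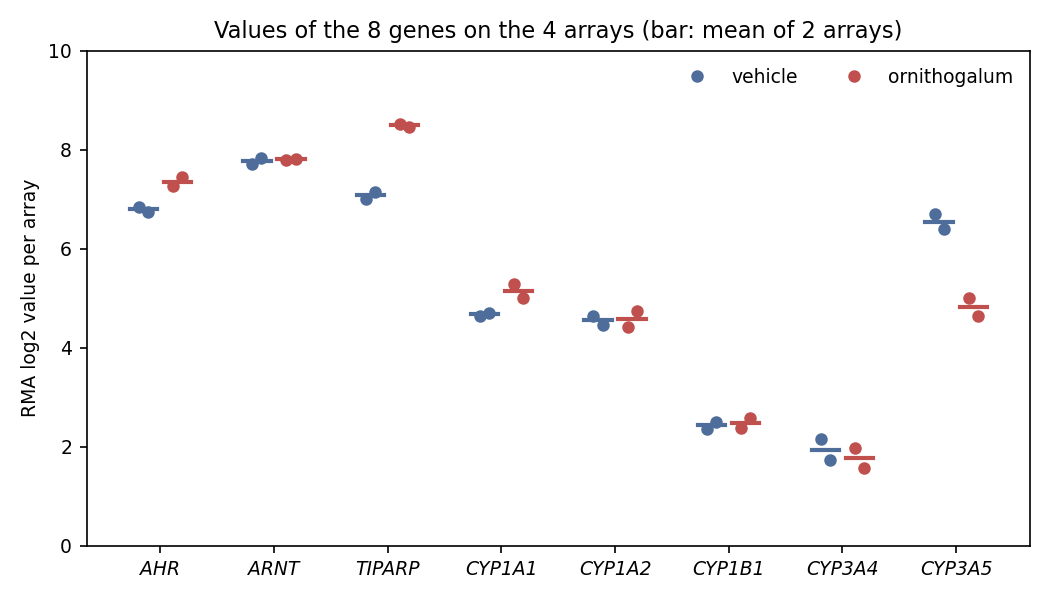
RMA log2 value of each gene on each array, vehicle in blue and ornithogalum in red, with a bar at the mean of 2 arrays. TIPARP, AHR and CYP1A1 lie above their vehicle arrays on both ornithogalum arrays, CYP3A5 lies below on both, and the other 4 genes overlap between groups.

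AHR itself, the receptor, read 7.26 and 7.44 with ornithogalum and 6.84 and 6.75 with vehicle. Both treated arrays were above both controls, with 0.42 log2 units between the nearest arrays of the 2 groups. AHR rose 1.47-fold (log2 difference 0.56, SE 0.13, 95% interval 0.23 to 0.88), from 6.79 ± 0.065 to 7.35 ± 0.13 (SD, n = 2 per group), with limma's adjusted p = 0.0404. This call lay close to the threshold and was lost when all 33297 clusters of the table were tested together (limma's adjusted p = 0.0924).

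ARNT, the partner with which AHR binds DNA, read 7.79 and 7.82 with ornithogalum and 7.71 and 7.83 with vehicle. Its groups overlapped, and its log2 difference of 0.036 had a 95% interval of -0.26 to 0.33, that is 0.835-fold to 1.26-fold. Its limma adjusted p was 0.853. The cluster shared by AHRR and PDCD6 read 5.29 and 5.00 with ornithogalum and 5.12 and 5.09 with vehicle, and these values cannot be assigned to AHRR.

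TIPARP, also called PARP7, encodes a mono-ADP-ribosyltransferase that is induced by AHR and restrains it. Its values were 8.53 and 8.46 with ornithogalum and 7.01 and 7.14 with vehicle. The nearest arrays of the 2 groups were 1.32 log2 units apart, while arrays within a group differed by 0.067 with ornithogalum and 0.13 with vehicle. TIPARP rose 2.67-fold (log2 difference 1.42, SE 0.12, 95% interval 1.11 to 1.72), with limma's adjusted p = 0.00391. It was the gene of the 8 whose change differed least between the treated arrays relative to its size, with 1.45 and 1.38 above the vehicle mean.

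CYP1A1, the enzyme most often read as a sign of AHR activity, read 5.28 and 4.99 with ornithogalum and 4.65 and 4.70 with vehicle. Both treated arrays were above both controls, but they differed from each other by 0.29 log2 units, against 0.050 between the vehicle arrays. The log2 difference was 0.47 (SE 0.14, 95% interval 0.10 to 0.83), which is 1.38-fold, and it did not pass the test (limma's adjusted p = 0.0861). Without ornithogalum replicate 2 the difference was 0.61 and passed (limma's adjusted p = 0.0221), but that fit holds 1 treated array, takes its spread from the vehicle pair alone and called 7058 clusters against 4076. Without replicate 1 the difference was 0.32 (limma's adjusted p = 0.121), in a fit of the same kind that called 4322.

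CYP1A2 lies next to CYP1A1 on chromosome 15, with the pair read in opposite directions. It read 4.42 and 4.73 with ornithogalum and 4.64 and 4.46 with vehicle, so the treated arrays held both its lowest and its highest value. The log2 difference was 0.022 (95% interval -0.38 to 0.42, limma's adjusted p = 0.936). CYP1B1, which acts on steroids and aromatic compounds outside the liver, read 2.37 and 2.58 with ornithogalum and 2.36 and 2.50 with vehicle. Its groups overlapped as well, with a log2 difference of 0.047 (95% interval -0.30 to 0.39, limma's adjusted p = 0.837). Changes larger than about 1.34-fold upward for CYP1A2 and 1.31-fold for CYP1B1 lay outside these intervals. Whether these 2 transcripts were detected at all cannot be read from the deposited values, which carry no detection call.

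CYP3A5 had the largest change of the 8 genes. It read 5.01 and 4.65 with ornithogalum and 6.69 and 6.40 with vehicle. The highest treated array was 1.38 log2 units under the lowest control, and arrays within a group differed by 0.36 and 0.30. CYP3A5 fell 3.28-fold (log2 difference -1.71, SE 0.18, 95% interval -2.18 to -1.25), from 6.55 ± 0.21 to 4.83 ± 0.26 (SD, n = 2 per group), with limma's adjusted p = 0.00575.

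CYP3A4, the main drug-oxidising P450 of adult liver and gut, read 1.97 and 1.56 with ornithogalum and 2.15 and 1.73 with vehicle. The groups overlapped, and the arrays within each group differed by 0.41 and 0.42. The log2 difference was -0.17 (95% interval -0.72 to 0.37, limma's adjusted p = 0.612). Whether CYP3A4 was detected at all cannot be read from these values either, as they carry no detection call. A 2nd cluster of the locus, annotated to both CYP3A7 and a readthrough transcript of it, read 2.92 and 2.55 with ornithogalum and 2.66 and 2.80 with vehicle. CYP3A43, a minor member of the subfamily, had a log2 difference of 0.17 (95% interval -0.24 to 0.57) and did not pass. Whether probes of these similar genes also bind one another's transcripts was not checked, and the difference between the changes of CYP3A5 and CYP3A4 was not tested.

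**Figure D2:**
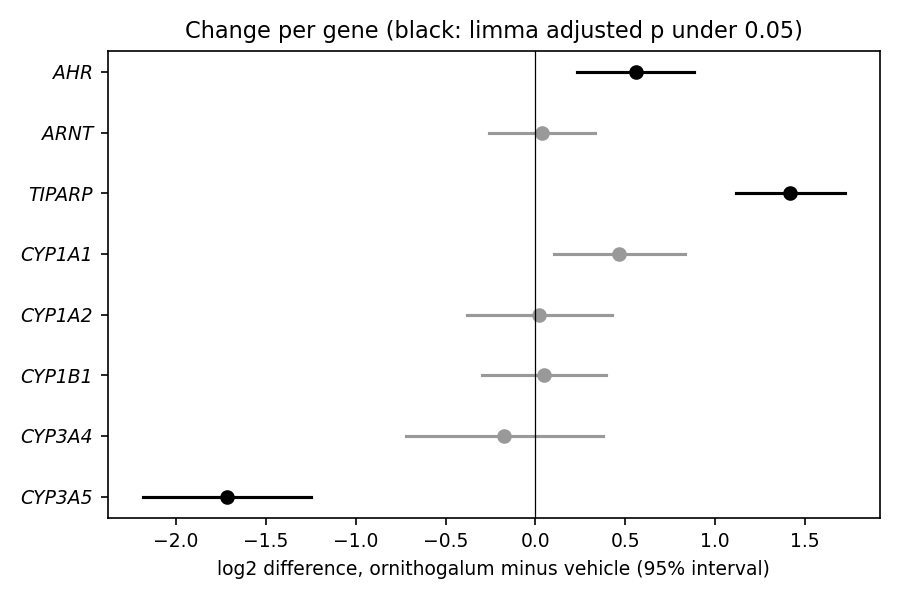
Log2 difference of each gene, ornithogalum minus vehicle, with limma's 95% interval (n = 2 per group). Black marks AHR, TIPARP and CYP3A5, whose adjusted p was under 0.05. The interval of CYP1A1 (0.10 to 0.83) also lies above 0, but its adjusted p was 0.0861.

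Leaving out a vehicle array leaves 1 control, which is then assumed to vary like the ornithogalum pair, whose spread was the wider (pooled SD 0.258 against 0.140). Without vehicle replicate 1 or 2, limma called 0 of 21214 clusters (4192 and 3986 at an unadjusted p under 0.05), so the loss of the 3 calls there was shared by every cluster and is nothing particular to these genes. The differences in those fits were 1.35 and 1.48 for TIPARP (limma's adjusted p = 0.0652 and 0.0612), -1.57 and -1.86 for CYP3A5 (0.0687 and 0.0612) and 0.60 and 0.51 for AHR (0.223 and 0.300).

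The labelled cell type was set against marker genes. The epithelial genes EPCAM, KRT8 and KRT18 read between 9.34 and 10.6 on all 4 arrays, and the trefoil factor TFF3 read 4.05 to 4.23. Of 7 gastric epithelial markers, CLDN4 included, 0 rose and 2 fell in limma, against 6.57% and 12.6% of all clusters. At limma's unadjusted p under 0.05, 1 was higher and 2 lower. The summed linear level of the 7 was 3704 and 3672 with ornithogalum and 4050 and 3965 with vehicle. KRT19 and the gut cadherin CDH17 fell, by 1.40 and 0.62 on the log2 scale (limma's adjusted p = 0.00437 and 0.0220), the second not after median centring (limma's adjusted p = 0.0738) or over all 33297 clusters (0.0588). CYP3A5 is typical of gut epithelium and liver. Of 6 enterocyte markers measured 0 rose and 1 fell in limma. This was VIL1, which encodes a protein of the brush border, by 1.22 on the log2 scale (limma's adjusted p = 0.00735). Before adjustment 3 of the 6 were lower with limma's p under 0.05 and 0 higher. Over both directions, 7160 of all 21214 clusters had such a p. The groups lay apart for 62.2% of all clusters (32.0% higher and 30.2% lower). They lay apart for 5 of the 6 enterocyte markers, with SI and APOA4 higher and VIL1, FABP2 and CDX2 lower with ornithogalum. Their summed linear level was 133 and 165 with ornithogalum and 244 and 250.3 with vehicle, and without VIL1 it was 87.1 and 112 against 139 and 127. Of 8 hepatocyte markers 0 passed in limma (0 at an unadjusted p under 0.05), and their summed level was 103 to 111 with ornithogalum and 110.5 to 112 with vehicle. Of the 6 fibroblast, 5 leukocyte and 5 endothelial markers 0 passed in limma, again with 0 at an unadjusted p under 0.05. The pan-leukocyte gene PTPRC read 1.44 to 1.74, while LYZ, which epithelium can also make, read 11.7 to 11.8. The part of the enterocyte genes in the lower CYP3A5 was not tested.

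Among genes of the proteins that hold or assist AHR, 2 of 10 measured rose and 1 fell, against 6.57% and 12.6% of all clusters. The list's median log2 difference was 0.013. The acetyltransferase gene EP300, a coactivator, rose 2.33-fold (log2 difference 1.22, SE 0.13, limma's adjusted p = 0.00567), from 6.13 and 5.95 on the vehicle arrays to 7.32 and 7.20. Its relative CREBBP rose 1.40-fold (limma's adjusted p = 0.0448), a call lost with array weights (limma's adjusted p = 0.0507) and over all 33297 clusters (limma's adjusted p = 0.0986). The coactivator gene NCOA2 fell 1.61-fold (limma's adjusted p = 0.0162), a call lost after median centring (limma's adjusted p = 0.0509). The chaperone gene HSP90AA1 had a log2 difference of 0.10 (95% interval -0.18 to 0.39), HSP90AB1 one of -0.23 (95% interval -0.53 to 0.080), and neither passed. Here and in the lists below, a fit without an ornithogalum replicate holds 1 treated array. The fit without replicate 2 called more of all clusters than the main fit. More calls in a list there cannot be read as particular to that list.

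Other genes known to respond to AHR showed no shared direction. Of 10 measured, 0 rose and 1 fell in limma, against 6.57% and 12.6% of all clusters. At limma's unadjusted p under 0.05, 2 were higher and 1 lower. Over both directions, 7160 of all 21214 clusters had such a p. The list's median log2 difference was -0.053 and turned to 0.11 after median centring. ALDH3A1, an aldehyde dehydrogenase and classic AHR-responsive gene, read 5.06 and 5.21 with ornithogalum and 6.04 and 6.10 with vehicle. It fell 1.91-fold (log2 difference -0.94, SE 0.12, limma's adjusted p = 0.00879). NQO1, a quinone reductase shared by the AHR and NRF2 programmes, had a log2 difference of -0.067 (95% interval -0.39 to 0.25), and NFE2L2, which encodes NRF2, one of 0.36 (limma's adjusted p = 0.0952), called with an intensity trend (limma's adjusted p = 0.0245). The cluster shared by 9 UGT1A symbols, UGT1A6 among them, read 5.29 and 5.27 with ornithogalum and 5.66 and 5.86 with vehicle and did not pass (limma's adjusted p = 0.0591). Without ornithogalum replicate 2, 2 of the 10 genes rose and 1 fell.

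AHR and ARNT belong to the bHLH-PAS family of transcription factors, of which 13 others were measured. Of these 2 rose and 2 fell, against 6.57% and 12.6% of all clusters. The list's median was 0.17. The clock factor BMAL1 rose 2.21-fold (limma's adjusted p = 0.00572), and EPAS1, a hypoxia-inducible factor, rose 1.59-fold (limma's adjusted p = 0.0192). CLOCK, the partner of BMAL1, fell 1.50-fold (limma's adjusted p = 0.0282) and SIM2 fell 1.46-fold (limma's adjusted p = 0.0369), both calls being lost after median centring, where 3 of the 13 rose and 0 fell in limma. Over all 33297 clusters their calls and that of EPAS1 (limma's adjusted p = 0.0533) were lost. ARNT2, which can stand in for ARNT, had a log2 difference of 0.32 (95% interval -0.28 to 0.92) and did not pass. Of the 13, 3 rose and 1 fell without ornithogalum replicate 1, and 3 rose and 3 fell without replicate 2.

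TIPARP belongs to the PARP family, and most of the relatives measured went the other way. Of 16 others 1 rose and 9 fell, with a median log2 difference of -0.50, where 12.6% of all clusters fell on the deposited values. PARP9, an interferon-induced member, fell 5.56-fold (log2 difference -2.48, SE 0.12, limma's adjusted p = 0.00336), from 5.47 and 5.37 on the vehicle arrays to 2.86 and 3.03. PARP16, a tail-anchored member of the endoplasmic reticulum, fell 2.99-fold (limma's adjusted p = 0.00364). TNKS2, a tankyrase, rose 2.23-fold (limma's adjusted p = 0.00492). After median centring 1 of the 16 rose and 6 fell, beside 1898 of all clusters lower in place of 2683. Tested over all 33297 clusters, 4 of the 16 fell, beside 1677 of all clusters lower.

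Among genes of regulators of CYP3A and of the electron donors of P450 enzymes, 3 of 13 measured rose and 1 fell. Over all clusters 6.57% were higher and 12.6% lower. NR1I2, the PXR gene itself, and HNF4A had no cluster of their own here. The median was -0.13 and turned to 0.032 after median centring. FOXA3, a forkhead factor of liver and gut, rose 1.93-fold (limma's adjusted p = 0.00780), from 5.34 and 5.47 on the vehicle arrays to 6.36 and 6.34. The vitamin D receptor gene VDR rose 1.81-fold (limma's adjusted p = 0.00894) and the coactivator gene PPARGC1A rose 1.70-fold (limma's adjusted p = 0.0199). CYB5A encodes cytochrome b5, which passes electrons to CYP3A enzymes, and it fell 2.37-fold (limma's adjusted p = 0.00750), from 6.89 and 7.07 to 5.87 and 5.60. POR, the main P450 reductase, had a log2 difference of -0.44 (95% interval -0.83 to -0.051) and did not pass (limma's adjusted p = 0.114). After quantile normalization and after cyclic loess 5 of the 13 rose and 1 fell, with NR3C1 and FOXA2 called as well. The call of PPARGC1A was lost over all 33297 clusters (limma's adjusted p = 0.0554). Without ornithogalum replicate 2, 3 of the 13 rose and 3 fell.

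Other genes known to respond to PXR included 2 of 9 that fell and 0 that rose in limma, against 12.6% and 6.57% of all clusters. At an unadjusted p under 0.05, 3 were lower and 0 higher, while 7160 of all 21214 clusters had such a p in either direction. The list's median was 0.058 and turned to -0.12 after quantile normalization. The exporter gene ABCC3 fell 1.88-fold (limma's adjusted p = 0.00779) and the glutathione transferase gene GSTA1 fell 1.72-fold (limma's adjusted p = 0.0149). ABCB1, the drug efflux pump, had a log2 difference of 0.058 (95% interval -0.25 to 0.36). Without ornithogalum replicate 2, 1 of the 9 rose and 3 fell. Of 32 genes of other P450 enzymes 1 rose and 2 fell, where 6.57% of all clusters rose and 12.6% fell. The median of these 32 was 0.045 and turned to -0.0053 after quantile normalization. CYP2R1, which hydroxylates vitamin D, read 3.78 and 3.58 with ornithogalum and 5.66 and 5.95 with vehicle, and it fell 4.36-fold (limma's adjusted p = 0.00336). CYP2J2, an arachidonic acid epoxygenase, fell 2.35-fold (limma's adjusted p = 0.00894). CYP39A1 rose 1.46-fold (limma's adjusted p = 0.0475), a call lost after quantile normalization (limma's adjusted p = 0.125), after cyclic loess (0.173), with an intensity trend (0.0810) and over all 33297 clusters (0.104). Without ornithogalum replicate 1, 0 of the 32 rose and 3 fell, and without replicate 2, 4 rose and 3 fell.

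**Figure D3:**
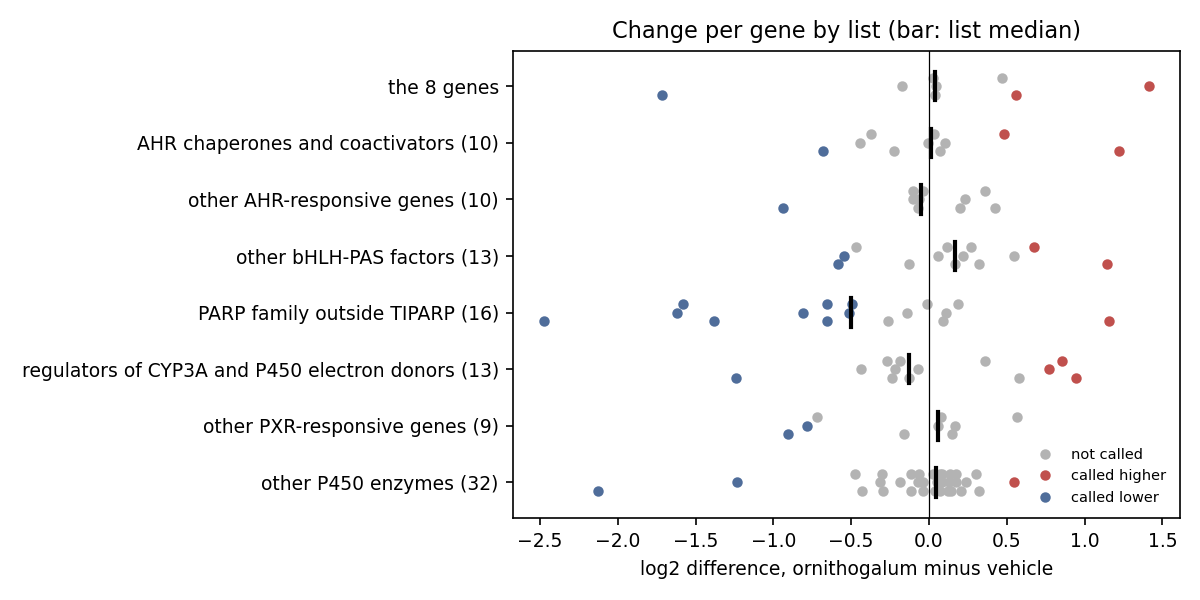
Log2 difference, ornithogalum minus vehicle, of each gene by list, with the number of measured genes in brackets. Red marks genes called higher, blue genes called lower and grey the rest, and the black bar is the list's median. The PARP family has 9 of 16 genes called lower and 1 higher, against TIPARP at 1.42 among the 8 genes in the top row.

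The genes whose pattern over the 4 arrays was nearest to that of each called gene were found by Euclidean distance between mean-centred log2 values. For TIPARP these were FIGN, 0.037 log2 units away, and ZFYVE1 at 0.052. For CYP3A5 they were TNFSF10, which encodes the death ligand TRAIL, at 0.068, and SNUPN at 0.14. For AHR they were RHBDD1 at 0.019 and SREK1 at 0.036. With 4 arrays such likeness describes little beyond a similar difference between groups.

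**Figure D4:**
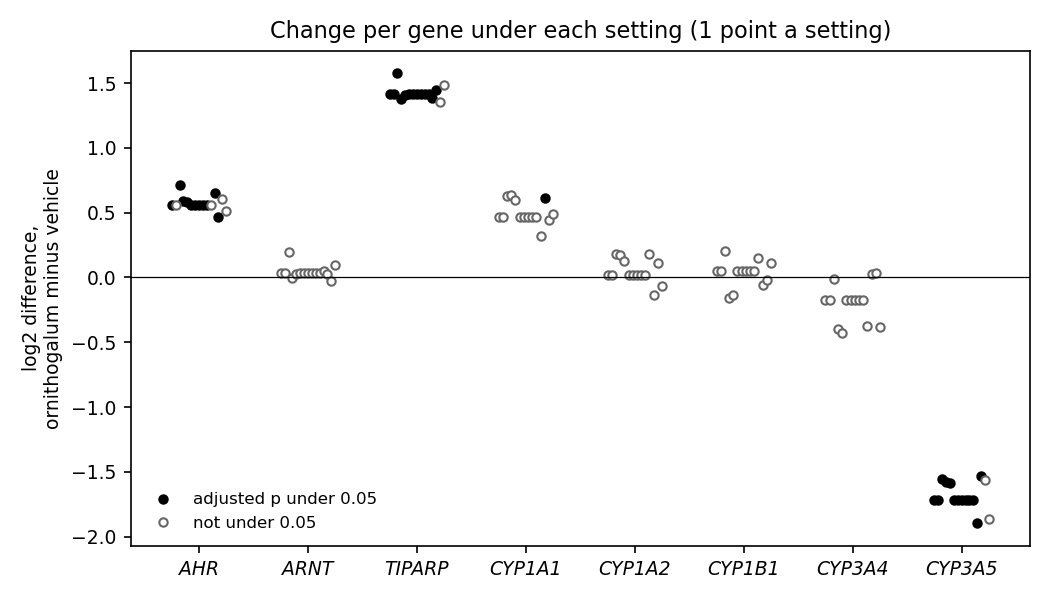
Log2 difference of each gene under the fit to the deposited values and up to 14 alternative settings, 1 point a setting. Filled points had an adjusted p under 0.05. TIPARP stays between 1.35 and 1.58 and CYP3A5 between -1.90 and -1.53, while ARNT, CYP1A2, CYP1B1 and CYP3A4 lie on both sides of 0.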

How the data were processed

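Expression of 4 arrays was deposited as 1 log2 value per array and transcript cluster, which the authors obtained by RMA (robust multi-array average). Expression Console 1.1 of Affymetrix is named per the submitters' processing notes, and the sources used here give no background or quantile settings. Arrays carry no depth, and their number limits the precision. Of 33297 clusters, 19461 have 1 symbol in the platform annotation of 2016, 1753 have several and 12083 none. Symbols were updated through RefSeq for 19429. The 21214 clusters with a symbol were tested without a filter on dim clusters, with limma 3.58.1 in R 4.3.3 (lmFit, eBayes), two-sided, adjusted by Benjamini-Hochberg, at a threshold of 0.05. The code was tested on simulated data. A listed gene with several clusters was taken by its brightest, and one without a cluster of its own was not used. From each of 7 lists, the 2 called genes of smallest p were named, and other genes were named after their values were seen. The members and lists were chosen with earlier results of these data known. The search for the PXR repeat was added after the data were seen. Alternatives were a block for the replicate number, each array left out, median, quantile and cyclic loess scaling, brighter clusters (mean log2 value of at least 5), an intensity trend (also with a robust prior), array weights, other sets of clusters and thresholds of 0.01 and 0.1.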

Additional observations from a re-analysis of the deposited data

How the results depend on the processing

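TIPARP and CYP3A5 kept their direction and their call in 12 of 14 alternative fits each, and AHR in 10 of 14. Centring each array on its median shifted the median difference over all clusters from 0.035 to 0.195 and gave 2238 clusters higher and 1898 lower, against 1393 and 2683. Same-numbered deviations from the group means had r = -0.059 over 21214 clusters, which cannot settle whether the replicates were paired. With the replicate number as a block AHR stayed at 0.56 but was not called (limma's adjusted p = 0.0749), so that 1 of the 8 genes rose. CREBBP was not called with the block either (limma's adjusted p = 0.0861). Over all 33297 clusters 1677 were lower, 1 of the 8 genes rose, and 5 list genes rose and 11 fell, against 9 and 18, with AHR at 0.56. At a threshold of 0.01 there were 442 clusters higher and 1001 lower, 1 of the 8 genes higher, and 5 list genes higher and 8 lower, with AHR (0.56) no longer called, and at 0.1 there were 2248 higher and CYP1A1 (0.47) was called. ARNT turned to -0.0024 after quantile normalization, and CYP1B1 to -0.16 after it and -0.14 after cyclic loess, none of them called. The cause of these turns was not tested. Leaving out each array in turn gave 0 to 3054 clusters higher and 0 to 4004 lower, 0 to 3 of the 8 genes higher and 0 to 1 lower, and 0 to 16 list genes higher and 0 to 24 lower. The counts of 0 all came from leaving out vehicle replicate 1 or 2, where limma had 4192 and 3986 clusters at an unadjusted p under 0.05 and the single control is assumed to vary like the ornithogalum pair, and the highest counts of clusters, of list genes and of the 8 genes higher from leaving out ornithogalum replicate 2. The differences then ran from 0.46 to 0.65 for AHR, -0.024 to 0.097 for ARNT, 1.35 to 1.48 for TIPARP, 0.32 to 0.61 for CYP1A1, -0.13 to 0.18 for CYP1A2, -0.058 to 0.15 for CYP1B1, -0.38 to 0.037 for CYP3A4 and -1.90 to -1.53 for CYP3A5. With brighter clusters only, CYP1A1, CYP1A2, CYP1B1 and CYP3A4 had no value. The spread within groups was 0.258 (SD) for ornithogalum and 0.140 for vehicle, and 2 arrays per group limit what can be called.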
